A study of Homo sapiens with 12 samples.

Results

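The HOX genes of the table were taken as every protein-coding gene whose symbol is HOXA, HOXB, HOXC or HOXD followed by a number. This gave 39 genes among the 58735 listed, 19951 of which are protein-coding. The rule uses no expression value, though it was chosen with earlier results of these data known. The HOXA cluster contributed 11 genes (chromosome 7, 27092993 to 27200106 in hg38) and the HOXB cluster 10 (chromosome 17, 48528526 to 48729178). The HOXC cluster contributed 9 (chromosome 12, 53938765 to 54056030) and the HOXD cluster 9 (chromosome 2, 176092891 to 176190907). A further row named HOXC5 carries the biotype processed_transcript and was not counted. Poly(A) RNA was sequenced in 12 libraries of 2 established lines, labelled Huh7 (derived from hepatocellular carcinoma) and hepG2, spelled HepG2 in the table (derived from hepatoblastoma). Each line was kept without treatment or treated with geniposide, the iridoid glycoside of gardenia, and collected at 48 h, which gave 4 groups of 3 libraries. No source used here gives the dose or vehicle, or says that replicates came from separate cultures, so p-values measure the spread between these libraries, which may be technical. The title frames the study around tumour suppression, DUOX1 and ferroptosis, so the HOX genes were not its stated subject.

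HOX genes encode homeodomain transcription factors that tell cells where they lie along the head-to-tail axis and, in limbs and genital tract, along the proximal-to-distal axis. Within a cluster the order of the genes on the chromosome follows the order of their domains in the embryo, so low-numbered paralogs mark the hindbrain and neck and high-numbered paralogs the caudal trunk and the ends of the limbs. Retinoic acid and CDX factors help to open the clusters, Polycomb proteins keep unused genes silent, and Trithorax proteins keep used genes active. The HOX proteins bind DNA together with TALE cofactors such as PBX and MEIS, and cells often keep part of their HOX code in culture.

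Between 15056655 and 17211659 fragments were recovered per library, and 3 fragments in a gene of 1 kb correspond to 0.161 to 0.212 FPKM (fragments per kilobase of transcript, scaled by library depth). FPKM is divided by gene length, so levels of different genes can be set side by side. Replicate 3 of the treated Huh7-labelled group stood apart, with a chi-square per degree of freedom of 38.9 and 40.0 against the other replicates of its group, while all other pairs within a group gave 2.15 to 6.06. The lines are called by their labels because defining liver transcripts were near 0. Of 14 genes for proteins that hepatocytes secrete, 0 reached a mean of 1 FPKM in any group, and the list summed to 0.238 to 0.777 FPKM over the 12 libraries. APOB, APOC3 and APOH had 0 fragments throughout. Transcription factors of hepatocytes and foregut summed to 46.2 to 48.2 FPKM in the untreated Huh7-labelled and 24.4 to 25.8 FPKM in the untreated HepG2-labelled libraries, and 5 of 15 reached 1 FPKM in each.

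Untreated Huh7-labelled cells expressed most HOX genes, and untreated HepG2-labelled cells expressed fewer, at lower levels and with a different cluster in the lead. A mean of 1 FPKM or more was reached by 32 of the 39 genes in the Huh7-labelled and by 24 in the HepG2-labelled libraries. By cluster these were 11 of 11 HOXA, 9 of 10 HOXB, 7 of 9 HOXC and 5 of 9 HOXD genes in the former, and 7, 8, 6 and 3 in the latter. At 5 FPKM or more the numbers were 26 and 11. The 39 genes together summed to 419 ± 1.49 FPKM (SD, n = 3) and 185 ± 3.63 FPKM.

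**Figure D1:**
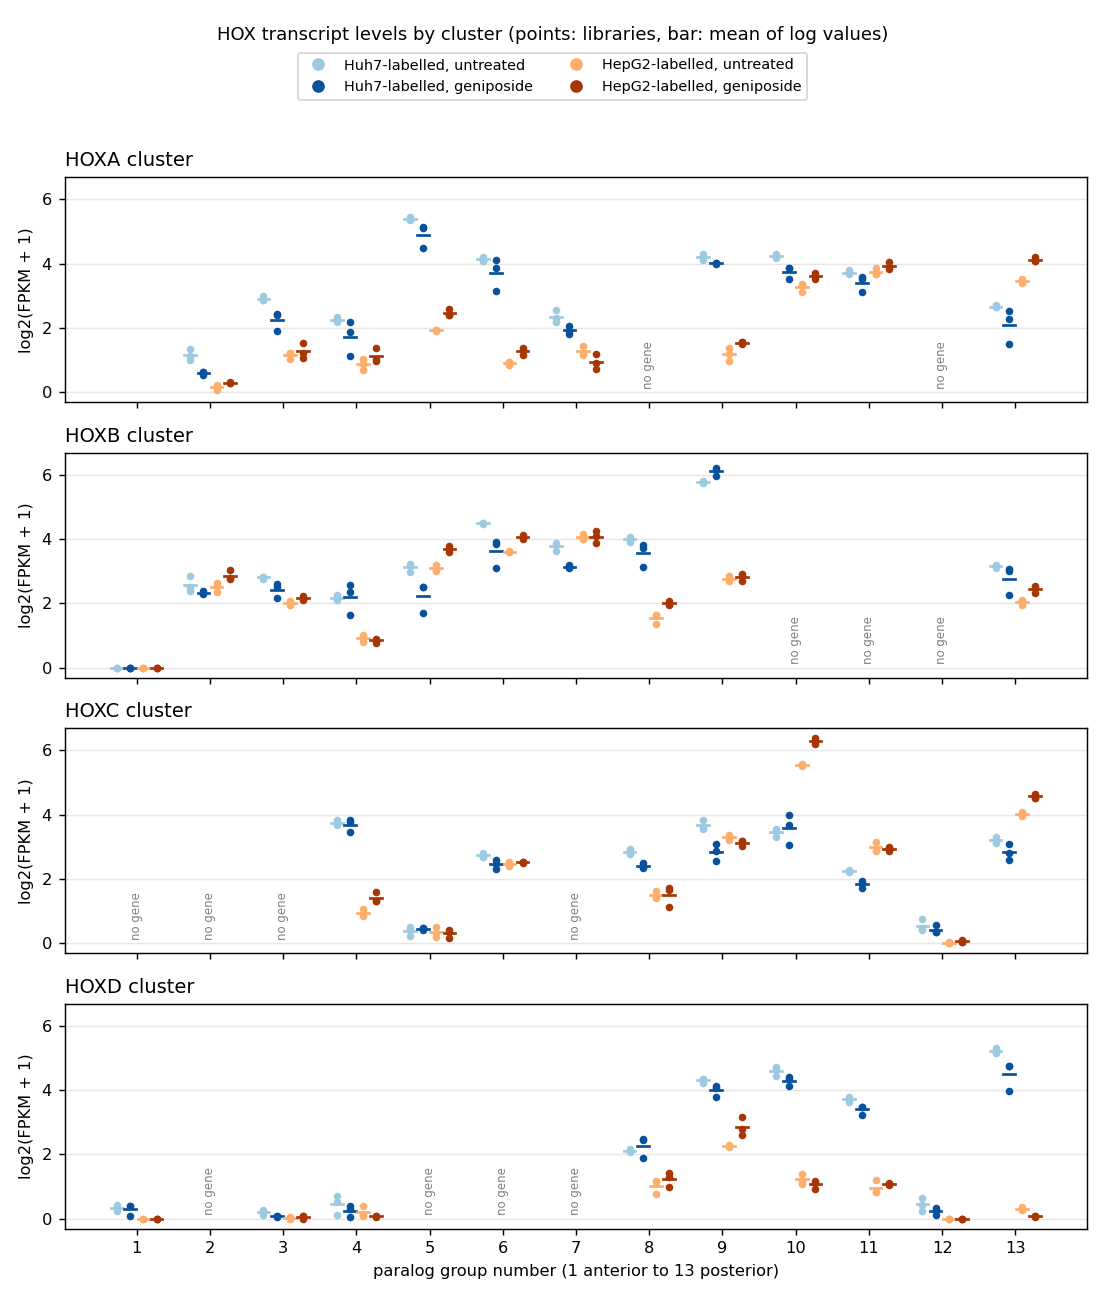
Level of HOX genes, as log2(FPKM + 1), against its paralog number in the 4 clusters. Points are libraries and bars the means of 3 log values per group. Most HOXA and HOXD genes sit higher in Huh7-labelled libraries, with HOXA11 about even and HOXA13 lower, and HOXC10 and HOXC13 sit higher in HepG2-labelled libraries.

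The 4 clusters shared this output differently in each line. In untreated Huh7-labelled libraries HOXB held 31.8% ± 0.576 of the summed HOX FPKM, HOXA 31.6% ± 0.284, HOXD 22.6% ± 0.469 and HOXC 14% ± 0.364. In untreated HepG2-labelled libraries HOXC held 45.4% ± 0.118, HOXB 29.1% ± 0.341, HOXA 21.5% ± 0.253 and HOXD 4.06% ± 0.17. The ranges of the lines do not overlap for any cluster, and HOXA and HOXB overlap each other in the Huh7-labelled libraries. HOXC rests largely on HOXC10: when log2(FPKM + 1) was summed instead, which gives the highest genes less weight, HOXB led in HepG2-labelled libraries with 33.3% against 31.1% for HOXC, and HOXA led in Huh7-labelled libraries with 32.1% against 28.5% for HOXB. Grouped by position, the anterior genes (paralogs 1 to 3) held 6.04% ± 0.265 and 5.01% ± 0.391 in the Huh7-labelled and HepG2-labelled untreated libraries, and the central genes (4 to 8) 36.7% ± 0.562 and 28.0% ± 0.923. The posterior genes (9 to 13) held 57.2% ± 0.443 and 67.0% ± 0.558, the largest share in both lines.

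**Figure D2:**
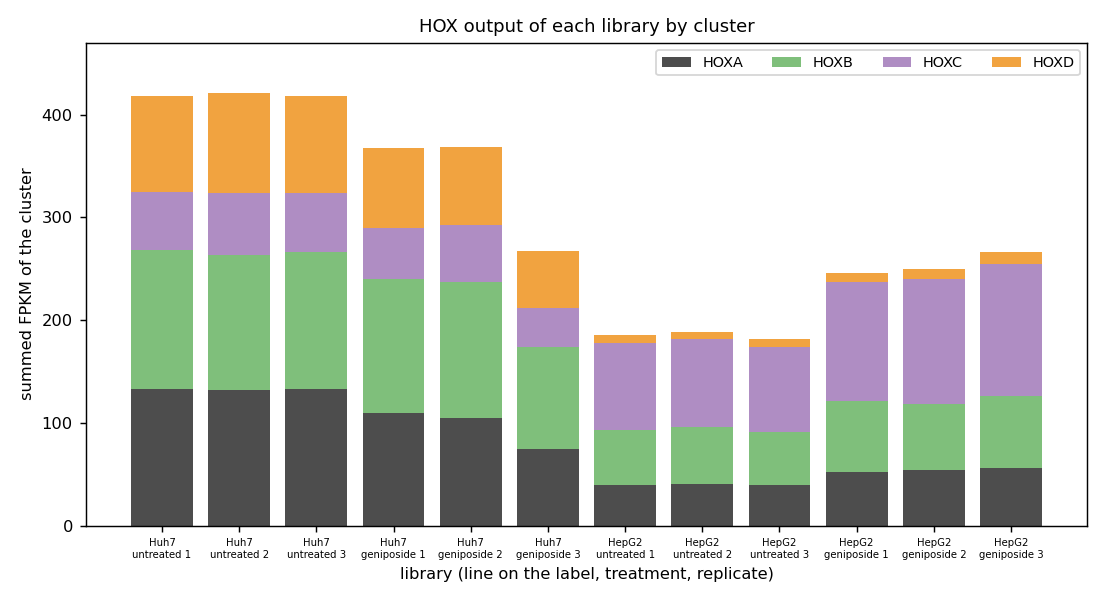
Summed FPKM of the HOX genes in each of the 12 libraries, stacked by cluster. HOXD is broad in the Huh7-labelled and thin in the HepG2-labelled libraries, HOXC is the widest band in the HepG2-labelled ones, and replicate 3 of the treated Huh7-labelled group has the lowest total of its line, 268 FPKM.

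The untreated lines differed in most single genes. Of the 39 genes, 38 could be tested (limma on log2(FPKM + 1), Benjamini-Hochberg over 28888 genes). In HepG2-labelled libraries 28 were lower and 5 higher, and HOXA11, HOXB2, HOXB5, HOXC5 and HOXD4 did not pass the test. Of all genes tested, 25.8% were lower and 22.3% higher. The median difference was -0.99 over the HOX genes and -0.03 over all genes. With FPKM rescaled to equal sums the median of all genes in this comparison moved to -0.18, and 29 HOX genes were lower and 3 higher. Of all genes, 9772 of 28888 were then lower and 5052 higher, against 7450 and 6452 in the main fit. With a fit to recovered fragments the median of all genes moved to -0.41, and 28 HOX genes were lower and 4 higher. All genes in that fit gave 10346 lower and 5196 higher.

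HOXD13, which patterns the digits and the genital tubercle, showed the largest difference between the lines on the log2(FPKM + 1) scale. It had 34.9, 35.5 and 38.4 FPKM in the untreated libraries of Huh7 and 0.27, 0.206 and 0.217 FPKM in those of HepG2. The HepG2-labelled values rest on 9, 7 and 7 fragments against 1340 to 1426, and all are far below the others. The difference was -4.92 ± 0.17 (SE, adjusted p = 2.28e-09), on a scale that understates folds of genes near or under 1 FPKM. HOXD10, which helps to specify lumbar motor neurons, averaged 23.2 ± 2.48 and 1.33 ± 0.267 FPKM, HOXD11, which acts in the forearm and kidney, 12.1 ± 0.626 and 0.943 ± 0.295, and HOXD9 18.8 ± 0.947 and 3.79 ± 0.101. Their differences were -3.38 ± 0.11, -2.76 ± 0.11 and -2.05 ± 0.13 (adjusted p = 1.5e-09, 5.1e-09 and 2.66e-07). HOXD10 and HOXD11 share 16.8% and 21.4% of their exon bases on the same strand, so their fragments could not be fully separated. HOXD8 was the nearest to even among the HOXD genes above 1 FPKM, at 3.33 ± 0.119 and 1.04 ± 0.305 FPKM (-1.1 ± 0.18, adjusted p = 0.000401).

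The HOXA cluster split along its length. HOXA5, needed for lung and neck development, stood at 39.8, 40.7 and 42.7 FPKM against 2.84, 2.74 and 2.81 FPKM. It was 14.7-fold higher in Huh7-labelled libraries by the means (-3.47 ± 0.15, adjusted p = 9.58e-09). HOXA9, a regulator of blood progenitors, stood at 18.5, 16.4 and 17.5 FPKM against 1.62, 0.979 and 1.26 FPKM (-3.02 ± 0.09, adjusted p = 5.58e-10), so these groups are wide apart. Towards the posterior end the gap closed. HOXA10, which patterns the uterus and lumbar spine, averaged 18.0 ± 0.731 and 8.68 ± 0.939 FPKM (-0.98 ± 0.1, adjusted p = 1.41e-05), and HOXA11 12.2 ± 0.497 and 12.4 ± 0.994 FPKM, a difference of 0.02 with a 95% interval of -0.24 to 0.27. HOXA13, which acts in hindgut, genital tract and limb ends, was higher in HepG2-labelled libraries, at 10.4, 9.87 and 9.57 FPKM against 5.25, 5.51 and 5.25 FPKM (0.79 ± 0.2, adjusted p = 0.00813). With FPKM rescaled to equal sums that difference was 0.59 with an adjusted p of 0.073. The other HOXA genes (HOXA2, HOXA3, HOXA4, HOXA6 and HOXA7) were 2.92-fold to 18.9-fold higher in Huh7-labelled libraries by the means. Of these, HOXA7 shares 62.5% and HOXA6 39.3% of its exon bases with HOXA-AS3 on the opposite strand, and HOXA11 shares 31.1% with HOXA11-AS. The protocol does not mark strand, so such fragments cannot be told apart.

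In the HOXB cluster HOXB9, which patterns the thoracic skeleton, was the highest HOX transcript of the Huh7-labelled cells. It had 54.9, 54.0 and 52.6 FPKM there, and the untreated HepG2-labelled values were 5.83, 6.2 and 5.49 FPKM (-3.0 ± 0.07, adjusted p = 1.61e-10). HOXB8, which acts in myeloid progenitors and the spinal cord, averaged 14.9 ± 0.877 and 1.93 ± 0.318 FPKM (-2.45 ± 0.15, adjusted p = 2.57e-07). HOXB2 and HOXB5 were close in the lines. HOXB5 averaged 7.72 ± 0.762 and 7.52 ± 0.567 FPKM (-0.03, 95% interval -0.45 to 0.38), and HOXB2, a hindbrain gene, 5.06 ± 1.06 and 4.71 ± 0.518 FPKM (-0.08, 95% interval -0.35 to 0.2). HOXB7 was higher in HepG2-labelled libraries, 15.6 ± 1.01 against 12.7 ± 1.07 FPKM (0.28 ± 0.09, adjusted p = 0.0304), but with FPKM rescaled to equal sums the difference was 0.02 (adjusted p = 0.884). That call was also lost on leaving out replicate 1 or 2 of either untreated group, with values of 0.22 to 0.3. HOXB3, HOXB4, HOXB6 and HOXB13, the last a prostate and hindgut gene, were 1.92-fold to 3.98-fold higher in Huh7-labelled libraries. HOXB1 had 0 fragments in every library.

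In the HOXC cluster the lines crossed over. HOXC10, a gene of lumbar motor neurons and hindlimb, was the highest HOX transcript of the HepG2-labelled cells, at 45.9, 46.6 and 44.5 FPKM against 10.2, 10.7 and 8.83 FPKM in untreated Huh7-labelled libraries (2.1 ± 0.18, adjusted p = 3.52e-06). HOXC13, which drives hair and nail keratin genes, had 16.0, 14.5 and 14.8 FPKM against 8.34, 8.9 and 7.75 FPKM (0.79 ± 0.1, adjusted p = 7.98e-05). HOXC11 averaged 6.89 ± 0.871 against 3.71 ± 0.105 FPKM (0.74 ± 0.08, adjusted p = 2.14e-05). These 3 genes were higher in each HepG2-labelled library than in any Huh7-labelled one. HOXC9 and HOXC12, which are also posterior, were lower in the untreated HepG2-labelled libraries. HOXC4, at the other end, averaged 0.919 ± 0.159 against 12.3 ± 0.706 FPKM (-2.8 ± 0.12, adjusted p = 9.02e-09). HOXC8, a gene of brachial motor neurons, averaged 1.83 ± 0.232 against 6.08 ± 0.408 FPKM (-1.32 ± 0.14, adjusted p = 1.47e-05). HOXC6 and HOXC9 differed least among the called genes of the cluster, at 4.52 ± 0.243 against 5.62 ± 0.272 FPKM and 8.77 ± 0.492 against 11.8 ± 1.34 FPKM (-0.26 ± 0.07 and -0.39 ± 0.12, adjusted p = 0.012 and 0.021). HOXC9 no longer passed on leaving out replicate 3 of the untreated Huh7-labelled or replicate 1 or 3 of the untreated HepG2-labelled group (-0.31 to -0.38, adjusted p up to 0.0827).

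The 7 genes under 1 FPKM in every group were HOXB1, HOXC5, HOXC12, HOXD1, HOXD3, HOXD4 and HOXD12. HOXC12 had 19, 21 and 37 fragments in untreated Huh7-labelled and 0, 0 and 1 in HepG2-labelled libraries. HOXD1 had 8, 6 and 11 fragments against 0 in each of the 6 HepG2-labelled libraries, and HOXD12 8, 13 and 4 against 0. HOXD3 had 10, 12 and 4 against 2, 0 and 1. These 4 passed the line comparison (-0.53, -0.32, -0.44 and -0.16, adjusted p = 0.000404, 0.00544, 0.00193 and 0.00821), on few fragments. HOXD4, HOXD3 and HOXC5 share 80.5%, 62.2% and 59.9% of their exon bases with other annotated genes on the same strand. HOXD1 shares 58.1% on the opposite strand. How far this shapes their values was not tested.

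The RefSeq table (GRCh38.p14) held 27 promoters for 20 of the 39 genes. The 250 bases before the start of 4 genes are given below, 5′ to 3′ on the strand of the gene, with each CG dinucleotide in capitals. HOXA9 and HOXD13 are shown as genes with among the widest gaps between the lines, HOXD11 as a HOXD gene inside the span that was low in HepG2-labelled cells, and HOXB1 as the gene without a fragment. None of these windows overlaps an annotated exon, though those of HOXA9 and HOXD11 lie inside the deposited spans of their genes.
HOXA9 (minus strand, chr7:27165538-27165787): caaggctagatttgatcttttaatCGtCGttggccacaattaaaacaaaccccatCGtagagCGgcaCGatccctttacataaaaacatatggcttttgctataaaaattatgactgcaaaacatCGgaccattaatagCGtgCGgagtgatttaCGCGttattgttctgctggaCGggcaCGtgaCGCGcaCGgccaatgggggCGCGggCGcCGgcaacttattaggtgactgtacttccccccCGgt
HOXD11 (plus strand, chr2:176107030-176107279): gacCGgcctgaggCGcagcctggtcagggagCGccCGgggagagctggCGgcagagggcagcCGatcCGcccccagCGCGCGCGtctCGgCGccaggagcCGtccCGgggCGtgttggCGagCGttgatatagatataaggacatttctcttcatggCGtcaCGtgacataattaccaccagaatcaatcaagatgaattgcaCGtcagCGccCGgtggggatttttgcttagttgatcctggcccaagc
HOXD13 (plus strand, chr2:176092471-176092720): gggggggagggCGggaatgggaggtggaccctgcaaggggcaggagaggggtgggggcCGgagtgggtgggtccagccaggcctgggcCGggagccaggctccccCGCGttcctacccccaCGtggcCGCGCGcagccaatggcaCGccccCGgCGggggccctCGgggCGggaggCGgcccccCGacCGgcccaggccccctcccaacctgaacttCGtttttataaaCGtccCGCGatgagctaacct
HOXB1 (minus strand, chr17:48531012-48531261): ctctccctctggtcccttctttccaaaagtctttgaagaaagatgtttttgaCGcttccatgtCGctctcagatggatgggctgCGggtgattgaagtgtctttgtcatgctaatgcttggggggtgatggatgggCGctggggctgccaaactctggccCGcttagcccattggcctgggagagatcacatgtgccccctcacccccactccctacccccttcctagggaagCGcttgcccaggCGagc
The windows of HOXA9, HOXD11 and HOXD13 hold 20, 23 and 21 CG dinucleotides and that of HOXB1 holds 7. The median was 19 over the 27 HOX windows and 11 over 35116 windows of the table. The letters TATAAA, searched on both strands, occur in 18.5% of HOX windows and 10.7% of all, among them HOXA9 and HOXD13. TGATNNAT, a pattern bound by HOX and PBX together, occurs in 11.1% and 6.47%, among them HOXB1 and HOXD11, and TGATGCAA in 0 of the 27 HOX windows and 0.772% of all. Some genes have several windows, so these shares describe the table and were not tested.

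Geniposide was followed by lower HOX transcript levels in Huh7-labelled cells. Of the 38 genes tested, 14 fell and 1 rose, against 9.42% and 9.93% of all genes tested, and the median change was -0.38 against 0.01 for all genes. HOXB5, HOXB6, HOXC9, HOXD13 and HOXA3 fell most on the log2(FPKM + 1) scale. By the means HOXA2, a low gene, fell most among the called genes (2.44-fold, against 1.99-fold for HOXB5). HOXB9 alone rose. Counted by cluster, 5 of 11 HOXA, 4 of 10 HOXB, 4 of 9 HOXC and 1 of 9 HOXD genes fell. Called or not, the change was negative for 11 HOXA, 7 HOXB, 7 HOXC and 8 HOXD genes. In untreated libraries 11 of 11 HOXA but 5 of 9 HOXD genes reached 1 FPKM, and the scale understates changes of genes below that. By position, 4 of 8 anterior, 5 of 15 central and 5 of 16 posterior genes fell. The summed HOX level was 335 ± 57.9 FPKM in treated libraries (268 to 368) against 419 ± 1.49 in untreated ones. Without replicate 3 of the treated group, 15 fell and 2 rose, HOXA13 and HOXC10 being added, and all of the 15 first calls were kept. Of all genes, 4193 of 28340 rose and 3614 fell in that fit, against 2869 and 2722 of 28888 with all libraries. Leaving out each of the 12 libraries in turn kept 9 of the 15 calls every time, among them HOXA2, HOXA10, HOXB5, HOXB6, HOXB7, HOXB9, HOXC9 and HOXC11. Leaving out replicate 1 of the untreated group left 10 calls, the lowest number of these fits, while 2161 of 28371 genes rose and 2122 fell. The Huh7-labelled libraries fitted alone also gave 10 calls, with HOXC8 gained, while 1321 of 25409 genes rose and 1466 fell. That fit lost HOXA5, HOXB3, HOXB5, HOXC6, HOXC13 and HOXD13 (adjusted p = 0.0659 to 0.142). In bulk RNA, fewer cells of a kind and less RNA per cell cannot be told apart.

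HOXB6 stood at 21.4, 21.3 and 21.6 FPKM in untreated and at 13.9, 13.3 and 7.66 FPKM in treated Huh7-labelled libraries. All treated values are lower, and replicate 3 is the lowest. The change was -0.87 ± 0.16 (adjusted p = 0.00408), and -0.62 without that replicate (adjusted p = 7.79e-06). HOXB6 shares 16.6% of its exon bases with HOXB3 and 16.3% with HOXB-AS3 on the opposite strand. HOXB5 stood at 8.4, 6.9 and 7.87 FPKM untreated and at 4.65, 4.75 and 2.24 FPKM treated (-0.88 ± 0.19, adjusted p = 0.0082). Its groups do not overlap, and the fit to the Huh7-labelled libraries alone gave an adjusted p of 0.0659 at the same size of change. HOXB7 fell from 12.7 ± 1.07 to 7.82 ± 0.358 FPKM (-0.63 ± 0.09, adjusted p = 0.00124), with replicate 3 close to its fellows. HOXB3, a hindbrain gene, fell from 5.99 ± 0.15 to 4.4 ± 0.827 FPKM (-0.39 ± 0.1, adjusted p = 0.0222). That call was lost on leaving out any untreated Huh7-labelled replicate (adjusted p up to 0.069) and with FPKM rescaled to equal sums (-0.37, adjusted p = 0.0526), and without treated replicate 3 the change was -0.25.

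HOXB9 went the other way. It stood at 54.9, 54.0 and 52.6 FPKM untreated and at 70.4, 73.0 and 60.9 FPKM treated, with all treated values above all untreated ones. The change was 0.33 ± 0.07 (adjusted p = 0.0116), and 0.28 to 0.41 on leaving out each library in turn. HOXB8, the next gene of the cluster, stood at 14.9 ± 0.877 and 11.0 ± 2.81 FPKM (-0.43 ± 0.15, adjusted p = 0.0812) and did not pass. HOXB2, HOXB4 and HOXB13 did not pass either, with changes of -0.25, 0.01 and -0.38.

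Among the HOXA genes, HOXA5 stood at 39.8, 40.7 and 42.7 FPKM untreated and at 34.1, 33.2 and 21.2 FPKM treated (-0.49 ± 0.15, adjusted p = 0.0389). The treated values are all lower, and without replicate 3 the change was -0.28 (adjusted p = 0.0064). The call was lost in 8 of the 12 fits that left out 1 library (every untreated library of either line and replicates 1 and 3 of the treated HepG2-labelled group), with adjusted p up to 0.11, and with FPKM rescaled to equal sums (-0.43, adjusted p = 0.0814). HOXA10 fell from 18.6, 17.2 and 18.2 to 13.6, 13.5 and 10.5 FPKM (-0.5 ± 0.1, adjusted p = 0.00687), and replicate 3 was again lowest. HOXA2, which shapes the face and hindbrain, fell from 1.23 ± 0.264 to 0.506 ± 0.059 FPKM (-0.56 ± 0.08, adjusted p = 0.00121) and HOXA3, a gene of thymus and parathyroid development, from 6.54 ± 0.42 to 3.82 ± 0.948 FPKM (-0.67 ± 0.16, adjusted p = 0.0137). HOXA3 had an adjusted p of 0.0511 without replicate 1 of the untreated group. HOXA4, HOXA6, HOXA7, HOXA9, HOXA11 and HOXA13 did not pass, with changes of -0.57 to -0.2. HOXA13 is the member of these that passed without treated replicate 3 (-0.26, adjusted p = 0.0189).

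In HOXC, HOXC9, a gene of thoracic motor neurons, stood at 10.8, 11.4 and 13.3 FPKM untreated and at 6.35, 7.44 and 4.9 FPKM treated. The groups do not overlap, and the change was -0.84 ± 0.12 (adjusted p = 0.000993). HOXC11 fell from 3.71 ± 0.105 to 2.59 ± 0.245 FPKM (-0.39 ± 0.08, adjusted p = 0.00704) and HOXC13 from 8.33 ± 0.575 to 6.17 ± 1.18 FPKM (-0.39 ± 0.1, adjusted p = 0.0239). HOXC13 no longer passed without untreated replicate 1 or 2 or treated replicate 1 (adjusted p up to 0.0852), nor in the fit to recovered fragments (-0.37, adjusted p = 0.056). HOXC6 fell from 5.62 ± 0.272 to 4.48 ± 0.546 FPKM (-0.28 ± 0.07, adjusted p = 0.0241), a call lost without each untreated replicate or treated replicate 2 (adjusted p up to 0.0888) and with rescaled sums (-0.24, adjusted p = 0.0855). HOXC10 stood at 10.2, 10.7 and 8.83 FPKM untreated and at 11.7, 14.9 and 7.34 FPKM treated, and replicate 3 lies on the other side of the untreated values from its fellows. Its change was 0.13 ± 0.18 (adjusted p = 0.745) and, without that replicate, 0.38 (adjusted p = 0.0181). HOXC4 and HOXC8 did not pass (-0.05 and -0.42).

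HOXD13 was the called gene of the HOXD cluster in Huh7-labelled cells. It stood at 34.9, 35.5 and 38.4 FPKM untreated and at 25.8, 26.1 and 14.7 FPKM treated, with replicate 3 lowest and no overlap (-0.73 ± 0.17, adjusted p = 0.0142). Without that replicate the change was -0.47 (adjusted p = 0.000164), and without untreated replicate 3 it was -0.69 (adjusted p = 0.0522). HOXD9, HOXD10 and HOXD11 moved by -0.31, -0.3 and -0.31 and did not pass (adjusted p = 0.133, 0.0933 and 0.069). HOXD8 gave 0.16, with a 95% interval of -0.24 to 0.55.

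**Figure D3:**
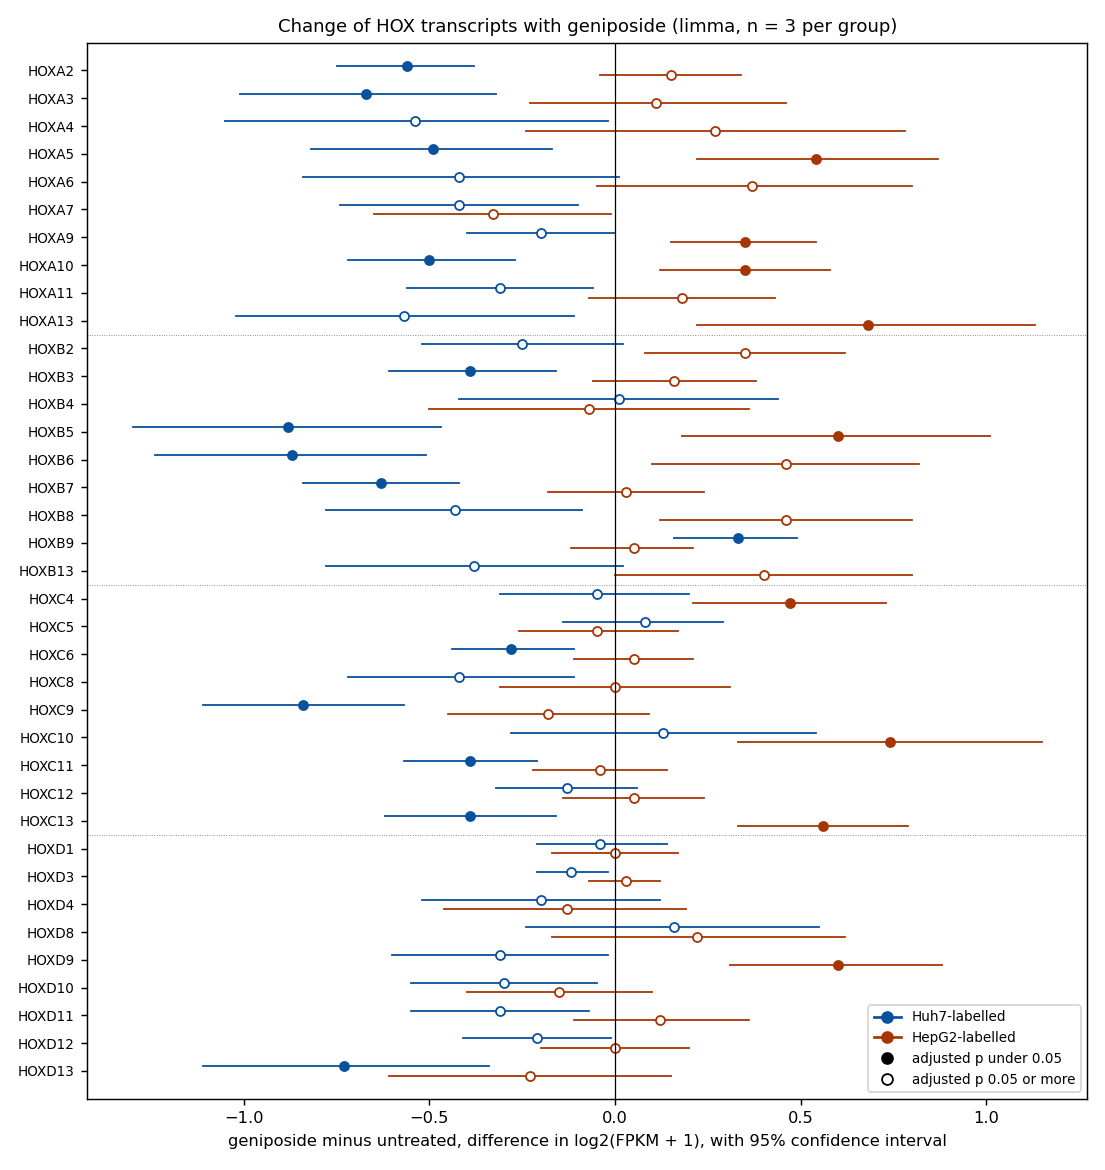
Change with geniposide of tested HOX genes in each line, as a difference in log2(FPKM + 1) with its 95% confidence interval from limma. Filled points passed an adjusted p of 0.05. Most blue (Huh7-labelled) points lie left of 0 and the 9 filled brown (HepG2-labelled) points lie right of 0.

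In HepG2-labelled cells the called changes were rises. Of the 38 genes tested 9 rose and 0 fell, against 11.6% and 11.1% of all genes tested, and the median change was 0.14 against 0.0 for all genes. At an unadjusted p under 0.05, 13 were higher and 1 lower. The share of all genes at that threshold is not given here, so this count has no background. The limma fit to recovered fragments called 9 higher and 0 lower, and of all genes 3497 of 28888 higher and 3047 lower. The 9 were HOXA5, HOXA9, HOXA10, HOXA13, HOXB5, HOXC4, HOXC10, HOXC13 and HOXD9, of which 6 are posterior and 3 central genes. The summed HOX level was 254 ± 11.4 FPKM in treated and 185 ± 3.63 FPKM in untreated libraries, and HOXC10 alone went from 45.7 to 76.9 FPKM. The count was 4 without untreated replicate 1 or treated replicate 2 of this line. It was 15 (14 higher and 1 lower) without replicate 3 of the treated Huh7-labelled group, which enters here only through the shared estimate of spread, and 14 in a fit to the HepG2-labelled libraries alone. It was 6 without untreated replicate 2 or 3 or treated replicate 3. Of all genes, 4346 of 28340 were higher and 4220 lower without that Huh7-labelled library, against 3347 and 3220 of 28888 in the main fit. The HepG2-labelled libraries alone gave 3938 and 3877 of 23071. Without untreated replicate 1 all genes gave 2721 and 2789 of 28590, and without treated replicate 2 they gave 2763 and 2684 of 28466. The fits with 6 calls gave 2687 to 3078 higher and 2707 to 2921 lower. HOXC10, HOXC13, HOXD9 and HOXA9 were called whichever library was left out.

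HOXC10 stood at 45.9, 46.6 and 44.5 FPKM untreated and at 72.4, 76.7 and 81.7 FPKM treated. Every treated value is above every untreated one by a wide margin (0.74 ± 0.18, adjusted p = 0.0145), and the means differ 1.68-fold. HOXC13 stood at 16.0, 14.5 and 14.8 FPKM against 22.1, 22.0 and 24.1 FPKM (0.56 ± 0.1, adjusted p = 0.00276), again without overlap. HOXC4 rose from 0.789, 0.87 and 1.1 to 1.48, 2.02 and 1.48 FPKM (0.47 ± 0.12, adjusted p = 0.0144). Without untreated replicate 1 or treated replicate 2 its adjusted p was 0.0555 and 0.0562. HOXC6, HOXC8, HOXC9 and HOXC11 did not pass, with changes of -0.18 to 0.05.

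HOXA13 stood at 10.4, 9.87 and 9.57 FPKM untreated and at 17.3, 16.1 and 16.0 FPKM treated, with no overlap (0.68 ± 0.2, adjusted p = 0.0362). HOXB5 stood at 7.28, 8.17 and 7.11 FPKM untreated and at 11.8, 11.1 and 12.7 FPKM treated, also without overlap (0.6 ± 0.19, adjusted p = 0.0431). Both were called in 3 of the 12 fits that left out 1 library, those without a treated Huh7-labelled replicate, and missed the threshold in the other 9, with adjusted p up to 0.0995 and 0.118. HOXA5 rose from 2.84, 2.74 and 2.81 to 4.29, 5.05 and 4.3 FPKM (0.54 ± 0.15, adjusted p = 0.0206). It missed the threshold without any untreated replicate or treated replicate 2 of this line (adjusted p up to 0.0768), and in the fit to recovered fragments (0.71, adjusted p = 0.142). HOXA10 rose from 7.6, 9.17 and 9.27 to 10.5, 11.4 and 12.1 FPKM (0.35 ± 0.1, adjusted p = 0.031), a call lost without untreated replicate 1 or treated replicate 2 or 3 (adjusted p up to 0.115). HOXA9 rose from 1.29 ± 0.321 to 1.89 ± 0.0448 FPKM (0.35 ± 0.09, adjusted p = 0.0156). HOXD9 stood at 3.81, 3.88 and 3.68 FPKM untreated and at 5.08, 5.97 and 7.93 FPKM treated (0.6 ± 0.13, adjusted p = 0.00715).

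Of the genes that did not pass, HOXB8, HOXB2 and HOXB6 were nearest. HOXB2 averaged 4.71 ± 0.518 untreated and 6.29 ± 0.764 FPKM treated (0.35 ± 0.12, adjusted p = 0.0656), and it passed with rescaled sums (0.46, adjusted p = 0.0281). HOXB6 and HOXB8 averaged 11.2 ± 0.134 against 15.7 ± 0.827 FPKM and 1.93 ± 0.318 against 3.01 ± 0.178 FPKM (0.46 ± 0.16 and 0.46 ± 0.15, adjusted p = 0.0701 and 0.0582). HOXB6 passed in the fits with rescaled sums, with recovered fragments and with HepG2-labelled libraries alone (adjusted p = 0.0442, 0.0443 and 0.000432). HOXB9, the gene that rose in Huh7-labelled cells, gave 0.05 with a 95% interval of -0.12 to 0.21, and HOXB7 0.03 with one of -0.18 to 0.24. HOXD13 stayed on 9, 7 and 7 fragments untreated and 2, 2 and 1 treated (-0.23 ± 0.17, adjusted p = 0.449), and it passed as lower with a pseudocount of 0.1 in place of 1 FPKM (adjusted p = 0.00237) and with rescaled sums (0.0465).

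**Figure D4:**
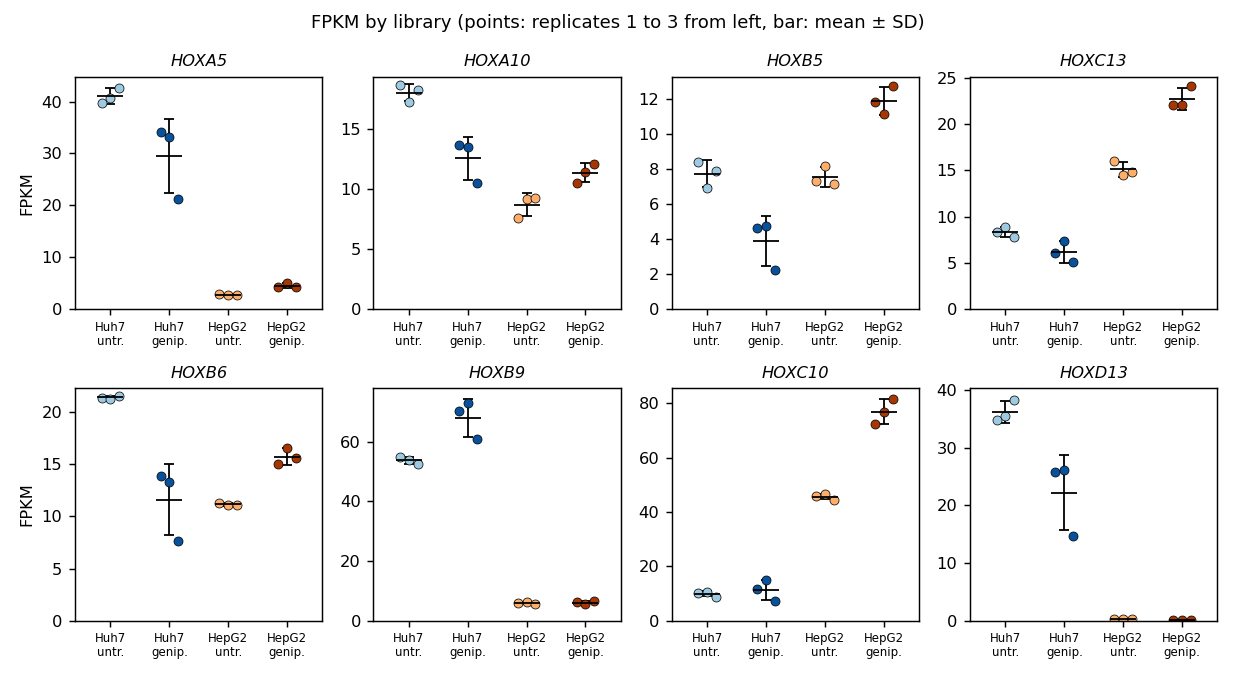
FPKM of 8 HOX genes in the 12 libraries, as points with mean ± SD over 3 libraries per group. HOXA5, HOXA10, HOXB5 and HOXC13 are lower with treatment in Huh7-labelled and higher in HepG2-labelled cells, HOXB9 is higher with treatment in Huh7-labelled cells, and HOXC10 in HepG2-labelled cells.

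The difference between the responses was tested directly, as the HepG2-labelled minus the Huh7-labelled change. It was positive and past the threshold for 16 of the 38 genes and negative for 0, against 7.12% and 7.22% of all genes tested, with a median of 0.55 against 0.0. By cluster the 16 were 7 of 11 HOXA, 6 of 10 HOXB, 2 of 9 HOXC and 1 of 9 HOXD genes. Called or not, the difference was positive for 11 HOXA, 7 HOXB, 8 HOXC and 9 HOXD genes. At an unadjusted p under 0.05, 26 were positive and 1 negative, again without a share of all genes to set beside them. The fit to recovered fragments called 11 and 0, and of all genes 1294 positive and 1849 negative. HOXA5, HOXA10, HOXB5 and HOXC13 fell in Huh7-labelled and rose in HepG2-labelled cells, and their differences were 1.04 ± 0.21, 0.85 ± 0.14, 1.48 ± 0.26 and 0.95 ± 0.15 (adjusted p = 0.00837, 0.00384, 0.00498 and 0.00227). No gene was called in the same direction in both lines. HOXB6 had a difference of 1.34 ± 0.23 (adjusted p = 0.00408) and HOXA13 of 1.24 ± 0.29 (adjusted p = 0.0176). For HOXC10 (0.61 ± 0.26, adjusted p = 0.16), HOXC4 (0.52 ± 0.16, 0.0615), HOXB9 (-0.28 ± 0.11, 0.109) and HOXD13 (0.5 ± 0.24, 0.221) the lines were not shown to respond differently. Without replicate 3 of the treated Huh7-labelled group 21 were positive and 1, HOXB9, negative (-0.36, adjusted p = 0.0136). Of all genes, 2981 of 28340 were then positive and 3342 negative, against 2057 and 2085 of 28888 with all libraries. Leaving out any other library gave 11 to 19 HOX calls, all positive, while 1541 to 2034 of all genes were positive and 1484 to 2106 negative. The lowest number, 11, came without untreated replicate 1 or 3 of the Huh7-labelled group and without untreated replicate 1 or treated replicate 3 of the HepG2-labelled group. Of the 16 calls, 10 held whichever library was left out.

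The direction in which the cluster shares moved depended in part on the scale. In treated Huh7-labelled libraries HOXA held 28.7% ± 1.12, HOXB 36.2% ± 0.93, HOXC 14.3% ± 0.766 and HOXD 20.9% ± 0.271 of the summed HOX FPKM. By FPKM, HOXB is above, and HOXA and HOXD are below, every untreated library (31.2 to 32.3%, 31.3 to 31.8% and 22.3 to 23.2%). By summed log2(FPKM + 1) HOXA is again below (30.4 to 31.7% treated, 32.0 to 32.1% untreated), but HOXD is above (19.4 to 19.7% against 19.0 to 19.1%) and HOXB overlaps (28.5 to 28.9% against 28.2 to 28.8%). In treated HepG2-labelled libraries the shares were 21.2% ± 0.367, 26.7% ± 1.41, 48.2% ± 0.895 and 3.94% ± 0.471, with HOXC above its untreated range of 45.3 to 45.5%, HOXB (25.5 to 28.3%) below its range of 28.7 to 29.3%, and HOXA and HOXD overlapping theirs. By summed log2(FPKM + 1) HOXC is instead below its untreated range (30.0 to 30.5% against 30.7 to 31.5%) and HOXB overlaps. On that scale HOXA is above its untreated range (27.5 to 28.3% against 26.5 to 27.2%) and HOXD overlaps. The posterior share of FPKM was 62.2% ± 2.15 and 69.6% ± 0.579, above the untreated values in both lines. By summed log2(FPKM + 1) it was above them in Huh7-labelled libraries (49.9 to 51.6% against 49.0 to 49.6%) and overlapped in HepG2-labelled ones (53.6 to 54.7% against 54.3 to 55.1%).

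Cofactors that pair with HOX proteins were present in both lines. All 11 TALE genes reached 1 FPKM in untreated Huh7-labelled libraries and 8 in untreated HepG2-labelled ones. Of the 11, 8 were lower and 2 higher in the HepG2-labelled ones (25.8% and 22.3% of all genes tested). With geniposide 1 rose and 2 fell in Huh7-labelled cells, and 2 rose and 1 fell in HepG2-labelled cells. Of all genes tested, 9.93% rose and 9.42% fell in the former, and 11.6% rose and 11.1% fell in the latter, and these shares are also the background for the lists that follow. MEIS3 rose in the latter from 3.38 to 5.46 FPKM (0.56, adjusted p = 0.00019). PKNOX2 rose in Huh7-labelled cells from 3.2 to 5.07 FPKM (0.53, adjusted p = 0.00182) and had 0 fragments in untreated HepG2-labelled ones.

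Genes that keep HOX clusters silent or active moved in both directions. Of 31 Polycomb genes, all above 1 FPKM, 6 rose and 7 fell in Huh7-labelled cells (9.93% and 9.42% of all genes), and 10 rose and 5 fell in HepG2-labelled cells (11.6% and 11.1%). RBBP7, a histone-binding subunit that Polycomb shares with other complexes, fell in both (-0.56 and -0.31, adjusted p = 8.09e-06 and 0.000108). In HepG2-labelled cells CBX7, a reader of the Polycomb mark, rose from 1.97 to 5.28 FPKM (1.08, adjusted p = 1.71e-05) and RYBP from 6.84 to 11.2 FPKM (0.64, adjusted p = 2.81e-05). Of 21 Trithorax and elongation genes, 3 rose and 6 fell in Huh7-labelled and 7 rose and 4 fell in HepG2-labelled cells. KDM6B, which removes the Polycomb mark, rose in both, from 5.87 to 10.2 and from 11.4 to 28.3 FPKM (0.7 and 1.24, adjusted p = 0.000431 and 6.83e-06). DOT1L rose and PSIP1 fell in HepG2-labelled cells (0.53 and -0.34, adjusted p = 0.000113 and 0.000328).

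The list of retinoid genes, whose signal opens anterior HOX genes in the embryo, showed 1 rise and 5 falls in Huh7-labelled and 4 rises and 1 fall in HepG2-labelled cells, of 18 tested. CRABP2, a carrier of retinoic acid, averaged 152 FPKM untreated and 107 FPKM treated in Huh7-labelled cells, and 14.1 and 27.5 FPKM in the other line (-0.52 and 0.92, adjusted p = 0.0282 and 0.000961; difference 1.45, adjusted p = 0.00139). ALDH1A3, which makes retinoic acid, fell in HepG2-labelled cells (-0.65, adjusted p = 0.000609), and RXRB rose in both lines (0.25 and 0.22, adjusted p = 0.00159 and 0.00191). Among 8 tested genes upstream of posterior HOX genes or related to them, CDX2, a regulator of HOX genes in the hindgut, had 13.4 FPKM in untreated Huh7-labelled libraries, fell to 8.85 with geniposide (-0.55, adjusted p = 0.000467), and had 0 fragments in all 6 HepG2-labelled libraries.

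Transcripts from the other strand or the gaps of the clusters were compared through 20 of the 22 symbols of a fixed list; HOXB-AS5 and HOXC10-AS were not used here. In untreated HepG2-labelled libraries 6 were higher and 7 lower, beside 22.3% and 25.8% of all genes tested. HOTAIR, a long RNA of the HOXC cluster known for its link to Polycomb, was higher there, at 8.61 against 3.95 FPKM (0.96, adjusted p = 1.32e-05), and fell with geniposide to 6.56 FPKM (-0.35, adjusted p = 0.0278). HOXC-AS3 followed the same order, at 1.41 against 0.101 FPKM untreated, and fell to 1.02 FPKM (-0.25, adjusted p = 0.0226). HOXA-AS3 fell in Huh7-labelled cells from 2.76 to 1.41 FPKM (-0.66, adjusted p = 0.00728). Its exons cover 62.5% of the exon bases of HOXA7 and 39.3% of those of HOXA6. Strand was not marked, so its fragments cannot be told apart from theirs there. HOTTIP, the RNA next to HOXA13 and chosen here after its values were seen, averaged 3.16 FPKM in untreated HepG2-labelled and 0.204 FPKM in Huh7-labelled cells (1.79, adjusted p = 1.58e-07), the order that HOXA13 showed. With geniposide 1 of the 20 fell in Huh7-labelled and 3 in HepG2-labelled cells, beside 9.42% and 11.1% of all genes.

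Other transcription factors that mark body regions showed the contrast between the lines too. Of 45 such genes 33 reached 1 FPKM in untreated Huh7-labelled and 14 in untreated HepG2-labelled libraries. In the latter 29 of 41 tested were lower and 5 higher (25.8% and 22.3% of all genes tested). With geniposide 9 fell in Huh7-labelled cells, and 4 rose and 1 fell in HepG2-labelled cells. FOXD1, a kidney stroma gene, rose in HepG2-labelled cells from 8.08 to 15.4 FPKM (0.85, adjusted p = 2.95e-06). WT1, a gene of kidney and gonad, fell in Huh7-labelled cells from 2.79 to 1.4 FPKM (-0.66, adjusted p = 0.00059).

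Marker sums of other cell types moved with the line and, in part, with treatment. Fibroblast and stellate markers, of which 6 of 9 reached 1 FPKM in some group (LUM, COL3A1, COL1A1, DCN, PDGFRB and ACTA2), summed to 5.31 to 5.74 and 7.42 to 9.76 FPKM in untreated and treated Huh7-labelled libraries and to 73.4 to 75 and 106 to 110 FPKM in HepG2-labelled ones. In HepG2-labelled cells LUM, COL3A1 and DCN of that list rose (0.73, 0.61 and 0.64), while PDGFRB, from 4.33 to 2.09 FPKM, and THY1 fell (-0.79 and -0.16, adjusted p = 0.00062 and 0.00192). Cholangiocyte markers, 3 of 6 of which reached 1 FPKM, summed to 3.5 to 4.36 and 2.46 to 3.95 FPKM in the former. They summed to 275 to 288 and 72.4 to 75.9 FPKM in the latter, mostly from KRT7. Squamous markers, 1 of 4 of which (KRT17) reached 1 FPKM, summed to at most 0.153 FPKM in Huh7-labelled libraries and to 165 to 173 and 113 to 127 FPKM in HepG2-labelled ones. Kidney markers summed to 0.619 to 4.28 FPKM over all libraries, leukocyte markers to 0.093 to 2.18 FPKM and endothelial markers to 0.1 to 1.27 FPKM, with 2 of 5, 1 of 6 and 0 of 5 genes at 1 FPKM in any group. The part of these markers in the HOX differences was not tested.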

How the data were processed

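Poly(A) RNA was sequenced from 12 libraries in 4 groups of 3. The authors deposited gene-level FPKM values with gene lengths and hg38 coordinates. CASAVA, fastp and hg38 are named, per the submitters' processing notes; no source used here names the aligner or counter. Per the labels' protocols, priming was random and strand was not marked. FPKM multiplied by length gave whole fragments for 100% of values (tolerance 0.05), 15056655 to 17211659 per library.

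HOX genes were taken by biotype and symbol, and the members and lists were chosen with earlier results of these data known. Genes above 0 in at least 3 of 12 samples (28888) were tested on log2(FPKM + 1) with limma 3.58.1 (R 4.3.3; trended empirical Bayes, 4 group means, 8 residual degrees of freedom, Benjamini-Hochberg, 0.05), on all 12 samples together. SEs and 95% intervals are limma's. HOX genes with a group mean of 1 FPKM or more were named, and up to 3 genes per other list, by adjusted p; some genes this rule selects are not reported here. Replicate numbers were not taken as pairs, since the deviations of same-numbered samples correlated at -0.061 to 0.02. The test was tried on simulated data. Alternatives were other pseudocounts, filters and scalings, voom on recovered fragments, a replicate block, each line alone, and leaving out each library. Promoter sequences came from RefSeq (GRCh38.p14).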

Additional observations from a re-analysis of the deposited data

Results flagged for a closer look

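The change with geniposide differed between the lines, by the test of the difference itself (limma, adjusted over all genes tested), for 16 HOX genes. The values are the HepG2-labelled minus the Huh7-labelled change on the log2(FPKM + 1) scale. In HOXA they included 0.71 for HOXA2, 0.78 for HOXA3, 1.04 for HOXA5, 0.55 for HOXA9, 0.85 for HOXA10 and 1.24 for HOXA13. In HOXB they were 0.6 for HOXB2, 0.55 for HOXB3, 1.48 for HOXB5, 1.34 for HOXB6, 0.66 for HOXB7 and 0.89 for HOXB8. HOXC9 and HOXC13 gave 0.66 and 0.95, and HOXD9 gave 0.91.

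The calls for HOXA3, HOXB2, HOXB3, HOXB8 and HOXC9 did not hold in every fit that left out 1 library. Those fits lost HOXB2 10 times of 12, HOXA3 8 times, HOXB3 7 times, HOXC9 6 times and HOXB8 3 times.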

How the results depend on the processing

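Leaving out 1 library at a time gave 10 to 18 HOX genes called in Huh7-labelled cells (15 with all libraries), 4 to 15 in HepG2-labelled cells (9), 11 to 22 for the difference between the changes (16) and 31 to 33 between the untreated lines (33). Over the same fits 2019 to 4193 of all genes rose and 2040 to 3614 fell in Huh7-labelled cells. In HepG2-labelled cells 2687 to 4346 rose and 2684 to 4220 fell. Without a filter on low values, 5 HOX genes were called in HepG2-labelled cells and 9 for the difference. All 58735 genes then gave 2710 rises and 2749 falls in HepG2-labelled cells, and 1541 positive and 1471 negative differences. The Huh7-labelled libraries fitted alone gave 10 calls (15 in the main fit), and the HepG2-labelled ones fitted alone gave 14 (9). With the replicate block the counts were 15, 7, 13 and 33; the numbers do not pair the samples. That fit lost HOXA10 and HOXB5 in HepG2-labelled cells and HOXA3, HOXB2 and HOXB3 for the difference. At 5 FPKM in place of 1, 11 HOX genes were counted in untreated HepG2-labelled libraries. From recovered fragments without length, HOXB held 34.2% and HOXD 20.6% in untreated Huh7-labelled libraries, and HOXA, HOXB, HOXC and HOXD 27.2%, 27.8%, 41.7% and 3.34% in HepG2-labelled ones. From sums of log2(FPKM + 1), in that cluster order, the shares were 32.1%, 28.5%, 20.4% and 19.1%, and 26.8%, 33.3%, 31.1% and 8.81%. With FPKM rescaled to equal sums, all genes tested split into 3624 higher and 2030 lower in Huh7-labelled cells (2869 and 2722 in the main fit), 3798 and 2600 in HepG2-labelled cells (3347 and 3220), and 5052 and 9772 between the lines (6452 and 7450). With voom the difference split into 1294 and 1849 (2057 and 2085). HOX genes under 1 FPKM rest on few fragments, so depth limits them. Among them HOXC5, HOXD1, HOXD3 and HOXD4 also share most of their exon bases with other annotated genes. The cause of each lost call was not tested.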
